A study of Mus musculus with 16 samples.

Results

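The genes described here are 31 mouse genes of the cell cycle and of DNA replication, taken by gene symbol from the 33730 gene IDs of the deposited count table. By role they comprise 5 regulators of G1 and of entry into S phase, 8 genes of replication origin licensing, 5 genes of nucleotide supply and DNA synthesis, and 13 genes of G2 and mitosis. All 31 were present in the table and all 31 passed the filter on low counts, which left 16206 genes. None of the 31 passed the threshold of adjusted p under 0.05 in any comparison of genotype or drug, and the descriptions below therefore give values and their spread.

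The study measured RNA in C57BL/6 mouse liver by ribosomal RNA-depleted RNA-seq in 16 libraries, 4 animals per group. The drug, CDDO-Me, also known as bardoxolone methyl, is a triterpenoid made by synthesis that activates NRF2, a transcription factor of antioxidant and detoxification genes that is encoded by Nfe2l2. All livers were labelled day 0 of partial hepatectomy, in which most of the liver is removed, and the study asked whether activating NRF2 alters liver regeneration. KO CDDO-Me mice were Nrf2-/- and received CDDO-Me at 3 mg/kg, dissolved in DMSO, by intraperitoneal injection at 24 h and at 1 h before the operation. KO untreated mice were Nrf2-/- and received no injection. WT CDDO-Me mice were wild type and received the same drug, dose and schedule as the KO CDDO-Me mice. WT DMSO mice were wild type and received DMSO at 1 µL/g by the same route. Since the KO control animals were not injected, vehicle and injection go with the drug in the comparison within KO mice. They go with the genotype in the comparison of control groups, and these cannot be told apart. The difference between the drug responses of the genotypes, KO minus WT, holds the same mixture, because only its KO response includes vehicle and injection. The labels do not state which stretch of the gene was deleted.

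As background, a liver cell that leaves quiescence first makes cyclin D, then cyclin E, and inactivates the retinoblastoma proteins, which frees E2F factors to switch on genes of DNA replication. In G1 the proteins CDC6 and CDT1 load the MCM helicase onto replication origins, a step called licensing, and in S phase the helicase opens the DNA for synthesis. The DREAM complex keeps cell cycle genes silent in quiescent cells. Once it has come apart, its MuvB core joins B-MYB and then FOXM1 in a later programme that supplies the cyclins, kinases and spindle proteins of mitosis. Hepatocytes of an adult liver are almost all quiescent and enter the cycle together after partial hepatectomy, so the day 0 liver shows these genes before that response.

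Library totals were 12002317 to 99284626 counts, with WT CDDO-Me 1 far above the other 15, whose highest total was 33827313. Nfe2l2 averaged 18.9 ± 2.25 CPM in KO CDDO-Me and 32.1 ± 14.8 CPM in KO untreated, against 39.9 ± 3.93 CPM in WT CDDO-Me and 59.8 ± 13.9 CPM in WT DMSO (SD, n = 4 each), where CPM is the count scaled to library size by edgeR's TMM method. The library KO untreated 1, at 51.7 CPM, lay inside the WT DMSO range of 42.8 to 74.9 CPM, and every other KO library lay below it. All 10 hepatocyte markers examined passed the filter and together summed to 54270 to 127200 CPM per library. At that level the label of the tissue fits its defining genes. The control libraries KO untreated 1 and 2 and WT DMSO 1 and 2 had 0.673 to 0.967% of their counts in the gene classes sense intronic and TEC (transcripts still awaiting experimental proof) of GENCODE M21, against 0.186 to 0.407% in the other 12 libraries. Counts in nuclear ribosomal RNA genes were 0.00108 to 0.0368% of the total in the 8 KO libraries and 0.173 to 0.634% in 6 of the 8 WT libraries, while WT CDDO-Me 1 (0.0105%) and WT DMSO 4 (0.00595%) lay in the KO range. This share therefore went mostly with genotype. It also followed the running numbers that open the deposited column names. The 6 WT libraries with the higher shares had the lowest of these numbers. WT CDDO-Me 1 and WT DMSO 4 had the highest, above those of all KO libraries. The part of this share in the genotype comparisons was not tested. No 2 libraries looked like the same material, the closest pair differing by 15.1 times its sampling noise (chi-square per degree of freedom).

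The promoters of 5 members are shown because the licensing genes and the mitotic genes mostly had opposite signs in KO untreated against WT DMSO livers, and the known elements of both programmes can be read in them. The sequences are RefSeq windows of the GRCm38.p6 build, read 5′ to 3′ on the strand of the gene, with 250 bases before the transcription start and 50 bases after it. Capitals mark the CCAAT box (CCAAT), the CHR element bound by DREAM (TTTGAA) and E2F elements (TTTCCCGC, TTTCGCGC, TTTGCCGC or TTTGGCGC), each searched on both strands, and overlapping matches run together. Mcm3 and Mcm6 encode subunits of the MCM helicase. Plk1 encodes a kinase of mitotic entry, Cdc20 an activator of the anaphase-promoting complex, and Top2a the topoisomerase that untangles chromosomes. Mcm3 lies at chr1:20820263-20820562 on the minus strand, Mcm6 at chr1:128359656-128359955 on the minus strand, Plk1 at chr7:122159185-122159484 on the plus strand, Cdc20 at chr4:118437294-118437593 on the minus strand and Top2a at chr11:99024140-99024439 on the minus strand.
Mcm3: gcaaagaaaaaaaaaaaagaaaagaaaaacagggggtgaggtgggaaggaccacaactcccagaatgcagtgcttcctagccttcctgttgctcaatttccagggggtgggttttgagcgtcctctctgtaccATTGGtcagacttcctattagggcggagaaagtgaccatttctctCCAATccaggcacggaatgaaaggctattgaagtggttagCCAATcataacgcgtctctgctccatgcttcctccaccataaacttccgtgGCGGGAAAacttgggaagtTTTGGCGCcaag
Mcm6: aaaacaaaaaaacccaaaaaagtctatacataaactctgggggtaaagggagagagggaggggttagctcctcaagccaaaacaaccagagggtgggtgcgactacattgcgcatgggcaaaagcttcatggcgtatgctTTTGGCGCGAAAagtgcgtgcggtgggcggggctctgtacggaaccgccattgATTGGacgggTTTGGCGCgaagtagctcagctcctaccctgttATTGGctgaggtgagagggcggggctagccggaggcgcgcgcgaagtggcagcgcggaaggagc
Plk1: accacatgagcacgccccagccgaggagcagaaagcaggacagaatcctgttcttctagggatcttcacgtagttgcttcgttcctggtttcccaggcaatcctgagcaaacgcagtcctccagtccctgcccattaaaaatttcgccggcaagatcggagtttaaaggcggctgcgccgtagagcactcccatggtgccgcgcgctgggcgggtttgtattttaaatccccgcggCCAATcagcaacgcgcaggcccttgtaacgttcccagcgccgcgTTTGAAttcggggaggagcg
Cdc20: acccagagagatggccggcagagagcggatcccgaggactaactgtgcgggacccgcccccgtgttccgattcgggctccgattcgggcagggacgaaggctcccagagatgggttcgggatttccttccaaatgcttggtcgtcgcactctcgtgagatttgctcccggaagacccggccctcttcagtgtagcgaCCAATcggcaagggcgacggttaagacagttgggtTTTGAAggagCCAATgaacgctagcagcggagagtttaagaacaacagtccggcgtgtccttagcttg
Top2a: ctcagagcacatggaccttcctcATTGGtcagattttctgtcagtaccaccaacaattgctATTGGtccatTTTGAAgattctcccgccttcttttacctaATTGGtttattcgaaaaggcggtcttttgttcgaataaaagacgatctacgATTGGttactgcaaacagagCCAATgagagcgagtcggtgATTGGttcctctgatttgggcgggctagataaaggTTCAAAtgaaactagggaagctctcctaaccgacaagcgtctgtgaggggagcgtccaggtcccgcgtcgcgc

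Of the 31 members, 25 had such a window, and with alternative starts there were 27 windows. E2F elements stood in 6 of the 8 licensing windows and in 1 of the 10 mitotic windows. The CHR element stood in 7 of the 10 mitotic windows and in 1 of the 8 licensing windows. A CCAAT box stood in 9 of the 10 mitotic windows, 6 of the 8 licensing windows and 3 of the 5 windows of DNA synthesis genes. None of the 3 motifs was found in the 4 windows of the G1 genes. Among all 32851 windows of the same length, 37.4% held a CCAAT box, 17.9% the CHR letters and 2.26% one of the E2F elements. These are matches of letters in a fixed window and say nothing of binding in these livers.

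On the FPKM scale, which divides by gene length and depth, the members ranged over almost 2 orders of magnitude. Pcna, which encodes the sliding clamp of DNA polymerase, had the highest mean over the 16 libraries, 7.48 ± 1.14 FPKM (SD). Cdkn1a, which encodes the CDK inhibitor p21, followed at 6.57 ± 5.90 FPKM, and its range of 1.60 to 21.6 FPKM took in that of Pcna. Ccnd1, the gene of cyclin D1, averaged 4.33 ± 1.53 FPKM, Tk1, the gene of cytosolic thymidine kinase, 3.55 ± 1.30 FPKM, and Mcm7 3.11 ± 0.509 FPKM. Tyms, Rrm2, Mcm6, Mcm4 and Mcm3 averaged between 1.39 and 1.86 FPKM, and their ranges over the libraries overlapped. The other 21 members averaged under 1 FPKM, from E2f1 at 0.996 FPKM down to Cdc6 at 0.0952 FPKM and Bub1 at 0.0873 FPKM, and all 13 mitotic genes were among them. Counts per library ran from 1 to 4757, 14 members had under 10 counts in at least 1 library, and none was at 0 in any. The precision follows: standard errors of the log2 fold changes ran from 0.14 for Mcm7 to 0.90 for Cdc6. Ccnd1, Ccne2, Mcm7, Tk1, Ccna2 and Cdc20 each overlap a protein-coding gene on the opposite strand, and since the strand setting of the counting is not given in the sources used here, their values are uncertain to that extent.

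**Figure D1:**
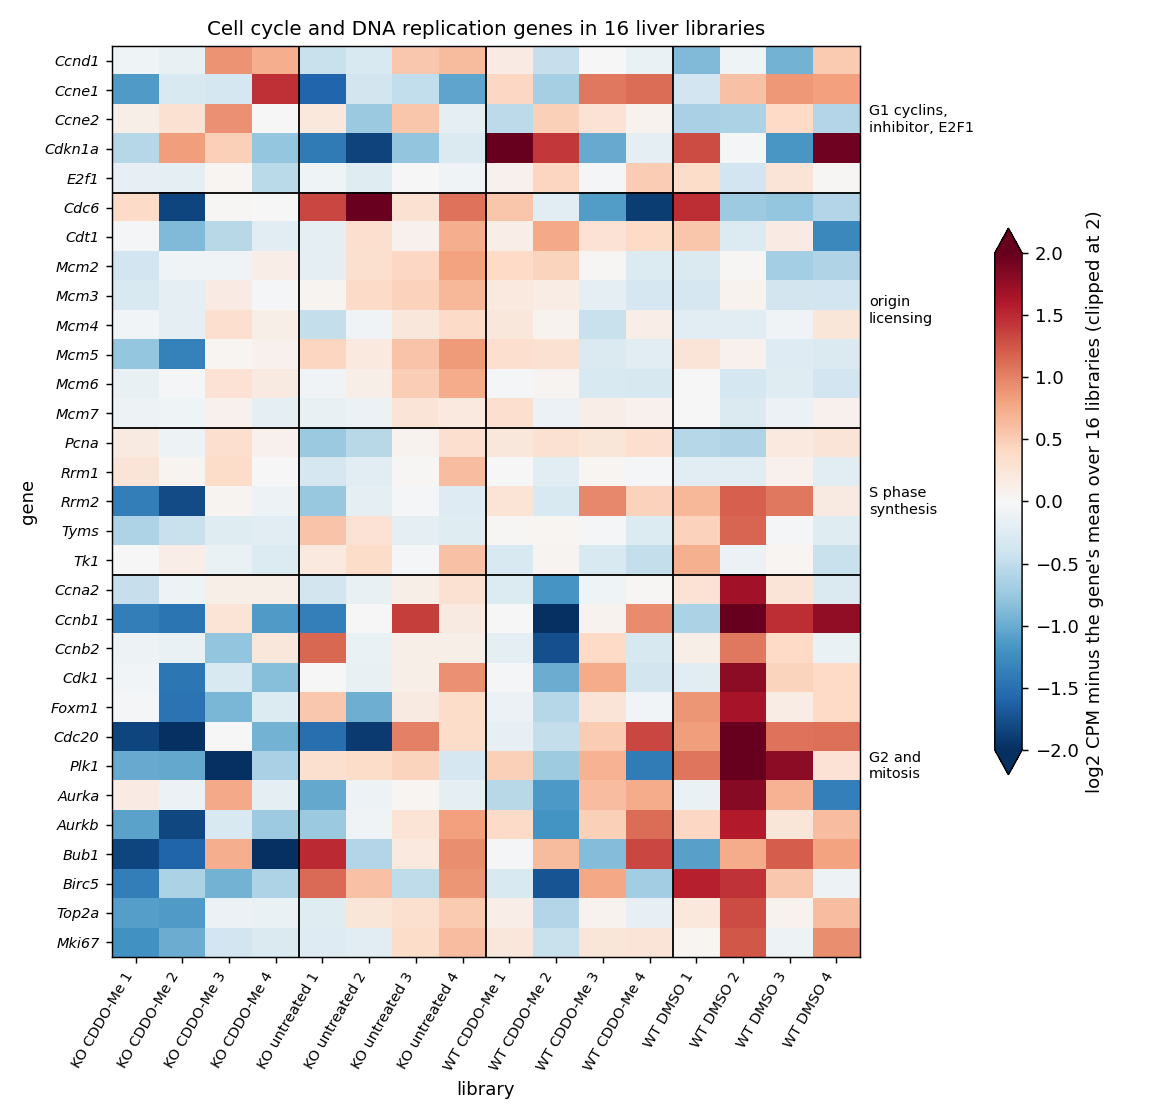
CPM of the 31 genes (down the page, by role) in the 16 libraries (across, by group), each as its log2 deviation from the gene's own mean. The mitotic genes are high in WT DMSO 2, whose summed mitotic level was 56.3 CPM, and low in the KO CDDO-Me libraries, at 10.2 to 16.4 CPM.

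Across the 31 genes, unadjusted p under 0.05 came up mostly on the side of lower levels. In whole liver RNA, fewer dividing cells and less RNA per dividing cell cannot be told apart. Fold changes below are log2 values from edgeR's quasi-likelihood fit over all 16 libraries, with a standard error after ±, and adjusted p is the Benjamini-Hochberg value over all 16206 genes. Between KO CDDO-Me and KO untreated livers no member was called, where 0.13% of all genes were. At unadjusted p under 0.05, 7 members were lower (22.6%, against 9.58% of all genes) and none was higher (6.24% of all genes). The lower ones were Mcm5, Birc5, Plk1, Mki67, Mcm3, Top2a and Cdc6. In 4 of them, Mcm5, Plk1, Birc5 and Mki67, every KO CDDO-Me library lay below every KO untreated library (12.9% of members, against 4.5% of all genes), and no member showed the opposite (5.98% of all genes).

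Between WT CDDO-Me and WT DMSO livers no member was called either, where 0.728% of all genes were. At unadjusted p under 0.05, 6 members were lower (19.4%, against 8.42% of all genes), Plk1, Ccna2, Ccnb1, Birc5, Top2a and Foxm1, and 1, Mcm2, was higher (3.23%, against 6.91% of all genes). No member separated these groups completely in either direction, where 2.84% of all genes were lower and 4.36% higher in every drug-treated library. The count of 7 moved in both directions with single libraries. It was 10 without WT DMSO 4, 9 without WT DMSO 3 and 9 without WT CDDO-Me 3. It was 3 without WT CDDO-Me 1, 1 without WT CDDO-Me 2, 2 without WT DMSO 2, 2 without the 4 control libraries rich in intronic counts and 2 with the intronic share as a covariate.

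Between KO CDDO-Me and WT CDDO-Me livers no member was called, where 3.3% of all genes were. Here 6 were lower at unadjusted p under 0.05 (19.4%, against 9.16% of all genes), Rrm2, Aurkb, Plk1, Mki67, Cdt1 and E2f1, and none was higher (7.92% of all genes). Cdt1 alone was lower in every KO library (3.23% of members, against 9.82% of all genes), and none was higher in every KO library (9.25% of all genes). The 6 became 2 without KO CDDO-Me 1, 1 without KO CDDO-Me 2, 3 without WT CDDO-Me 3, 2 without WT CDDO-Me 4 and 3 without WT CDDO-Me 1 and WT DMSO 4, the pair low in ribosomal RNA. On log2(FPKM + 0.1) and on log2(FPKM + 1), tested with limma, 1 member was left with unadjusted p under 0.05.

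Between KO untreated and WT DMSO livers no member was called, where 1.38% of all genes were. Mcm2, Mcm3 and Mcm6 were higher at unadjusted p under 0.05 (9.68% of members, against 6.65% of all genes), and Rrm2, Cdkn1a, Cdc20, Plk1 and Ccne1 were lower (16.1%, against 7.46% of all genes). Rrm2 was lower in every KO untreated library (3.23% of members, against 3.04% of all genes), and no member was higher in every one (2.87% of all genes). The count of 8 was 4 without the 4 control libraries rich in intronic counts. For the difference between the drug responses of the genotypes, KO minus WT, no member was called, where 0.13% of all genes were. The licensing genes Mcm2, Mcm3, Mcm5 and Cdt1 had a lower response in KO at unadjusted p under 0.05 (12.9% of members, against 4.96% of all genes), and none had a higher one (3.57% of all genes). That count was 2 without KO untreated 4 and 2 without WT CDDO-Me 1 and WT DMSO 4 together. In the comparison within KO mice the count of 7 became 11 without KO untreated 1. It was also 11 without the 4 control libraries rich in intronic counts. A fit to the KO groups only gave 11 of 27 members tested. In the other direction, it was 5 without KO CDDO-Me 2 and 5 of 26 under a stricter filter. It was 6 without KO CDDO-Me 1 and 6 without KO untreated 4.

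Taken as a list, the members' median log2 fold change was −0.49 in KO CDDO-Me against KO untreated, with −0.04 over all genes tested. Single removals moved that median to between −0.53 and −0.34. It was −0.32 in WT CDDO-Me against WT DMSO, with −0.02 over all genes, and depended on single libraries and on the filter. That value was −0.10 without WT DMSO 2, −0.15 without WT DMSO 1, −0.16 without WT CDDO-Me 3, −0.09 with the intronic share as a covariate and 0.05 over the 26 members left by a stricter filter. The median was −0.34 in KO CDDO-Me against WT CDDO-Me, with −0.01 over all genes, but −0.19 without WT CDDO-Me 3 and −0.22 without KO CDDO-Me 1. In KO untreated against WT DMSO it was −0.18, with 0.00 over all genes, and its sign did not hold. There it was 0.03 without WT DMSO 2, 0.09 without the 4 control libraries rich in intronic counts and 0.02 on log2(FPKM + 0.1), and it was −0.31 without KO untreated 1 and −0.12 without WT DMSO 3. These comparisons share libraries in pairs and are not independent of each other.

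**Figure D2:**
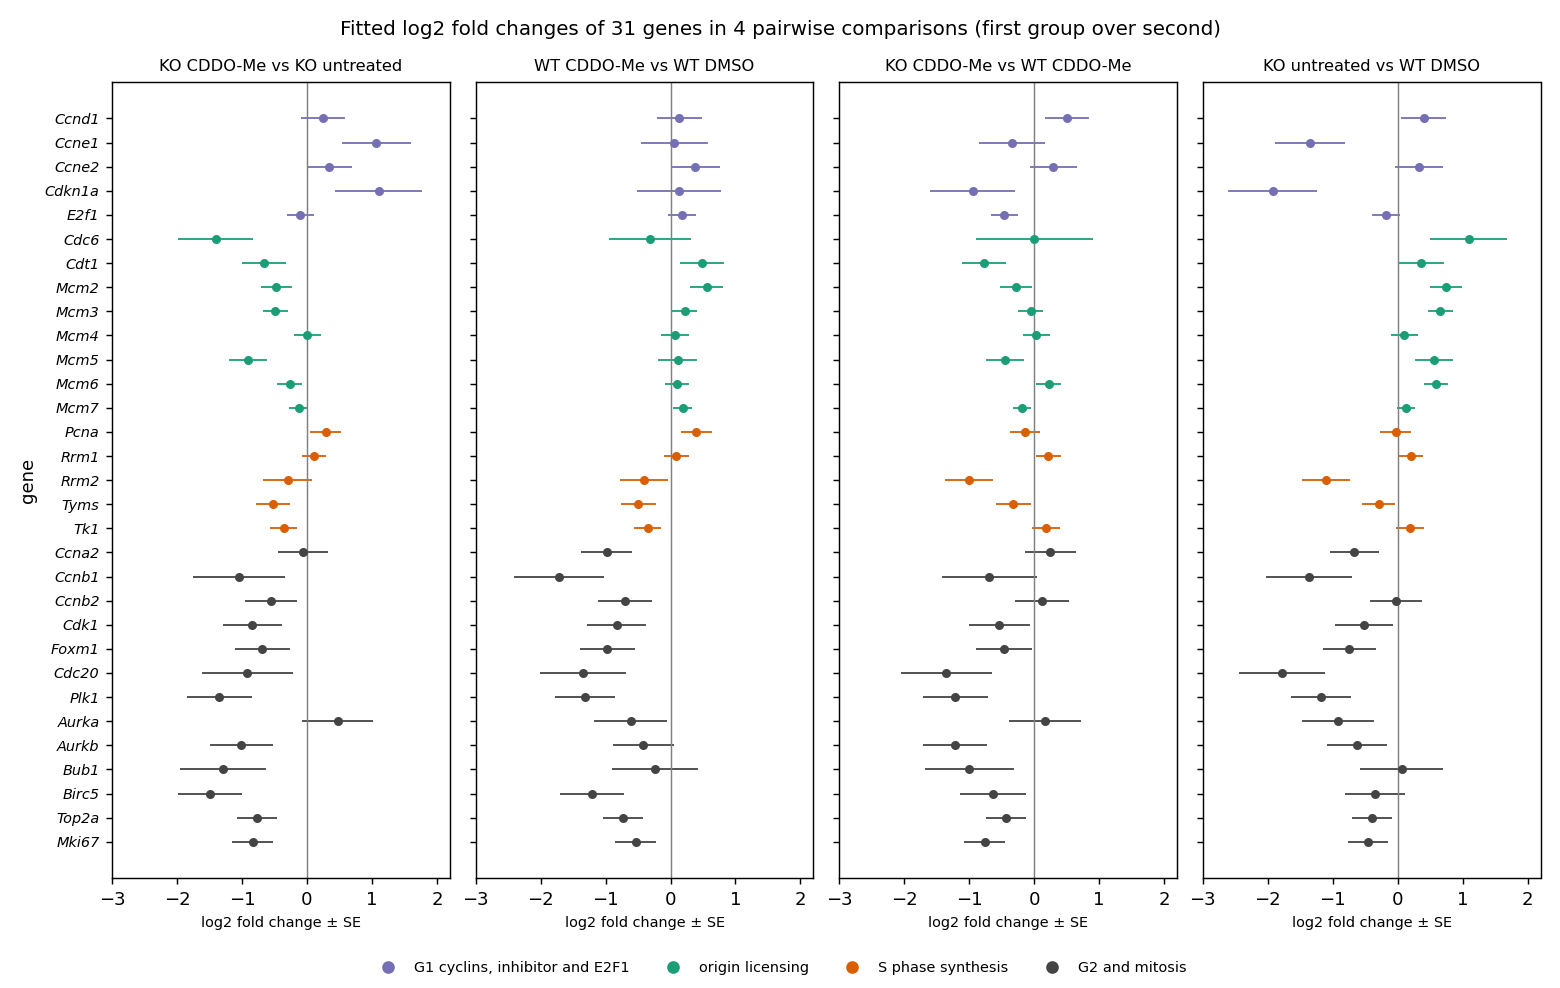
Log2 fold change of each of the 31 genes with its standard error (bars), in the 4 comparisons of groups, ordered by role. The 13 mitotic genes lie below 0 in WT CDDO-Me against WT DMSO, and the 8 licensing genes lie above 0 in KO untreated against WT DMSO; no gene passed adjusted p under 0.05.

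The 5 G1 genes had fold changes of both signs in 3 of the 4 comparisons of groups, and in WT CDDO-Me against WT DMSO all 5 were positive and under 0.4 on the log2 scale. Ccnd1, which encodes the D-type cyclin that starts the passage through G1, had 17.4 to 35.9 CPM in KO CDDO-Me, 14.1 to 29.8 CPM in KO untreated, 13.99 to 21.6 CPM in WT CDDO-Me and 9.97 to 27.6 CPM in WT DMSO. The 4 groups overlapped, and its log2 fold changes were between 0.13 and 0.51 in the comparisons of groups. Ccne2, 1 of the pair of cyclin E genes, had 0.963 to 1.82 CPM in KO CDDO-Me, 0.579 to 1.42 CPM in KO untreated, 0.676 to 1.34 CPM in WT CDDO-Me and 0.614 to 1.27 CPM in WT DMSO, again with overlap throughout.

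Ccne1, the other cyclin E gene, had 0.486, 0.862, 0.828 and 2.92 CPM in KO CDDO-Me, 0.355, 0.8204, 0.755 and 0.511 CPM in KO untreated, 1.42, 0.6698, 2.21 and 2.29 CPM in WT CDDO-Me and 0.819, 1.596, 1.94 and 1.88 CPM in WT DMSO. All KO untreated libraries lay under 1 CPM, and 3 of the 4 WT DMSO libraries lay above that, with WT DMSO 1 level with KO untreated 2. The difference had a log2 fold change of −1.35 ± 0.54 and an adjusted p = 0.253. In KO CDDO-Me the level hung on KO CDDO-Me 4, the highest library of all for this gene, and against KO untreated the log2 fold change was 1.06 ± 0.53 (adjusted p = 0.334).

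Cdkn1a, the p21 gene, which stops the cell cycle and is a classic p53 target, had 7.04, 18.6, 14.5 and 6.09 CPM in KO CDDO-Me, 3.91, 2.896, 6.04 and 8.57 CPM in KO untreated, 45.3, 27.98, 5.22 and 9.09 CPM in WT CDDO-Me and 25.9, 10.2, 4.68 and 40.3 CPM in WT DMSO. The 4 KO untreated values were low, from 2.896 to 8.57 CPM. WT libraries spread more widely in both treatments, with WT CDDO-Me 3 and WT DMSO 3 inside the KO untreated range. KO untreated against WT DMSO had a log2 fold change of −1.92 ± 0.68 and an adjusted p = 0.186, and KO CDDO-Me against KO untreated had 1.10 ± 0.67 (adjusted p = 0.393). E2f1, the gene of the E2F factor that activates replication genes, had 2.75, 2.68, 3.19 and 2.13 CPM in KO CDDO-Me, 2.895, 2.61, 3.12 and 2.94 CPM in KO untreated, 3.28, 4.17, 3.003 and 4.41 CPM in WT CDDO-Me and 3.96, 2.36, 3.68 and 3.12 CPM in WT DMSO. Its values stayed within 2.13 to 4.41 CPM, and KO CDDO-Me lay below WT CDDO-Me with KO CDDO-Me 3 and WT CDDO-Me 3 the only libraries out of that order, at −0.46 ± 0.21 (adjusted p = 0.279).

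The licensing genes were higher in KO untreated livers than in WT DMSO livers in 8 of 8 cases by sign, with a median log2 fold change of 0.58. Drug-treated KO livers lay below untreated KO livers in 7 of 8, with a median of −0.48. In WT mice the corresponding median was 0.15, with 7 of 8 positive, but −0.02 with 4 of 8 positive on log2(FPKM + 0.1), where the median of all genes moved to −0.13. The difference between the drug responses, KO minus WT, was negative for 8 of 8 with a median of −0.86. Leaving out single libraries moved these medians to between 0.44 and 0.66 (KO untreated against WT DMSO), between −0.61 and −0.34 (drug in KO) and between −0.95 and −0.49 (difference of responses, nearest 0 without WT CDDO-Me 1). Without KO untreated 4, 1 licensing gene was negative in KO untreated against WT DMSO. The 8 genes were measured in the same libraries, and no test over the list was made. Markers of other liver cells had signs partly like those of the licensing genes. Of 10 stellate cell and fibroblast markers, 8 were positive in KO untreated against WT DMSO (median 0.59), 8 were negative for the drug in KO (median −0.39) and all 10 were positive for the drug in WT (median 0.63). The difference of responses was negative for all 10 (median −1.04), with unadjusted p under 0.05 in 8, where 4.96% of all genes were lower at that level. It was also negative for all 10 Kupffer cell and macrophage markers (median −0.58) and all 10 liver endothelial markers (median −0.56). In KO untreated against WT DMSO all 10 Kupffer cell and macrophage markers (median 0.59) and all 10 endothelial markers (median 0.24) were positive. At unadjusted p under 0.05, 7 and 3 of these were higher, against 6.65% of all genes. For the drug in KO, 9 of 10 endothelial markers were negative (median −0.20). There 9 of 10 Kupffer cell and macrophage markers were positive (median 0.28) and 1 was negative, opposite to the licensing genes. The part of these cells in the licensing levels was not tested.

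Mcm2, a helicase subunit, had 2.63, 3.25, 3.25 and 3.75 CPM in KO CDDO-Me, 2.997, 4.29, 4.58 and 6.01 CPM in KO untreated, 4.495, 4.69, 3.48 and 2.85 CPM in WT CDDO-Me and 2.797, 3.47, 2.14 and 2.25 CPM in WT DMSO. KO untreated 4 was the highest library and WT DMSO 3 and 4 the lowest. KO untreated against WT DMSO had a log2 fold change of 0.75 ± 0.25 and an adjusted p = 0.156, WT CDDO-Me against WT DMSO had 0.55 ± 0.25 (adjusted p = 0.305), and the difference of responses was −1.03 ± 0.35 (adjusted p = 0.351).

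Mcm3, the next subunit, had 4.05, 4.404, 5.58 and 4.85 CPM in KO CDDO-Me, 5.18, 6.47, 6.89 and 7.93 CPM in KO untreated, 5.68, 5.51, 4.35 and 3.95 CPM in WT CDDO-Me and 3.96, 5.204, 3.88 and 3.81 CPM in WT DMSO. KO untreated 2, 3 and 4 exceeded all other libraries, and KO untreated 1 lay just under WT DMSO 2. KO untreated against WT DMSO had a log2 fold change of 0.65 ± 0.19 and an adjusted p = 0.111, the lowest p of the 31 genes in that comparison. KO CDDO-Me against KO untreated had −0.49 ± 0.19 (adjusted p = 0.263), and the difference of responses was −0.71 ± 0.27 (adjusted p = 0.433).

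Mcm5 had 1.86, 1.25, 3.28 and 3.37 CPM in KO CDDO-Me, 4.32, 3.67, 4.72 and 5.75 CPM in KO untreated, 4.03, 3.94, 2.61 and 2.75 CPM in WT CDDO-Me and 3.82, 3.4, 2.68 and 2.62 CPM in WT DMSO. Every KO CDDO-Me library lay below every KO untreated library, with KO CDDO-Me 1 and 2 lowest. That comparison had a log2 fold change of −0.91 ± 0.29 and an adjusted p = 0.224. The WT groups overlapped, at 0.11 ± 0.29, and the difference of responses was −1.02 ± 0.41 (adjusted p = 0.486).

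Mcm6 had 6.31, 6.89, 8.54 and 7.98 CPM in KO CDDO-Me, 6.65, 7.62, 9.86 and 11.7 CPM in KO untreated, 6.83, 7.29, 5.69 and 5.599 CPM in WT CDDO-Me and 7.03, 5.48, 5.96 and 5.37 CPM in WT DMSO. KO untreated 3 and 4 stood above all other libraries, and KO untreated 1 lay inside the WT DMSO range. KO untreated against WT DMSO had a log2 fold change of 0.59 ± 0.19 and an adjusted p = 0.145, and KO CDDO-Me against KO untreated was −0.27 ± 0.19. Mcm4 had 4.79 to 6.91 CPM in KO CDDO-Me, 3.96 to 7.16 CPM in KO untreated, 4.03 to 6.41 CPM in WT CDDO-Me and 4.72 to 6.52 CPM in WT DMSO and Mcm7 had 11.9 to 14.5 CPM in KO CDDO-Me, 12.3 to 16.2 CPM in KO untreated, 12.5 to 17.1 CPM in WT CDDO-Me and 11.2 to 14.5 CPM in WT DMSO. These last subunits overlapped in every comparison, with log2 fold changes from −0.19 to 0.19, so the 6 helicase genes did not all share the size seen for Mcm2, Mcm3 and Mcm6.

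The loaders of the helicase were rarer. Cdc6 had 0.445, 0.0957, 0.3504 and 0.344 CPM in KO CDDO-Me, 0.863, 1.35, 0.425 and 0.725 CPM in KO untreated, 0.505, 0.298, 0.158 and 0.0918 CPM in WT CDDO-Me and 0.955, 0.208, 0.201 and 0.2296 CPM in WT DMSO. KO untreated 1, 2 and 4 and WT DMSO 1 were the highest, and counts were as low as 1 in a library. KO CDDO-Me against KO untreated had a log2 fold change of −1.41 ± 0.58 and an adjusted p = 0.272, with KO CDDO-Me 1 just above KO untreated 3.

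Cdt1, the partner of CDC6, had 1.66, 0.909, 1.15 and 1.44 CPM in KO CDDO-Me, 1.47, 2.12, 1.79 and 2.77 CPM in KO untreated, 1.85, 2.83, 2.06 and 2.203 CPM in WT CDDO-Me and 2.46, 1.39, 1.87 and 0.689 CPM in WT DMSO. Every KO CDDO-Me library lay below every WT CDDO-Me library, and WT DMSO 4 was the lowest library of all. KO CDDO-Me against WT CDDO-Me had a log2 fold change of −0.78 ± 0.34 and an adjusted p = 0.249, and the difference of responses was −1.14 ± 0.48 (adjusted p = 0.511).

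**Figure D3:**
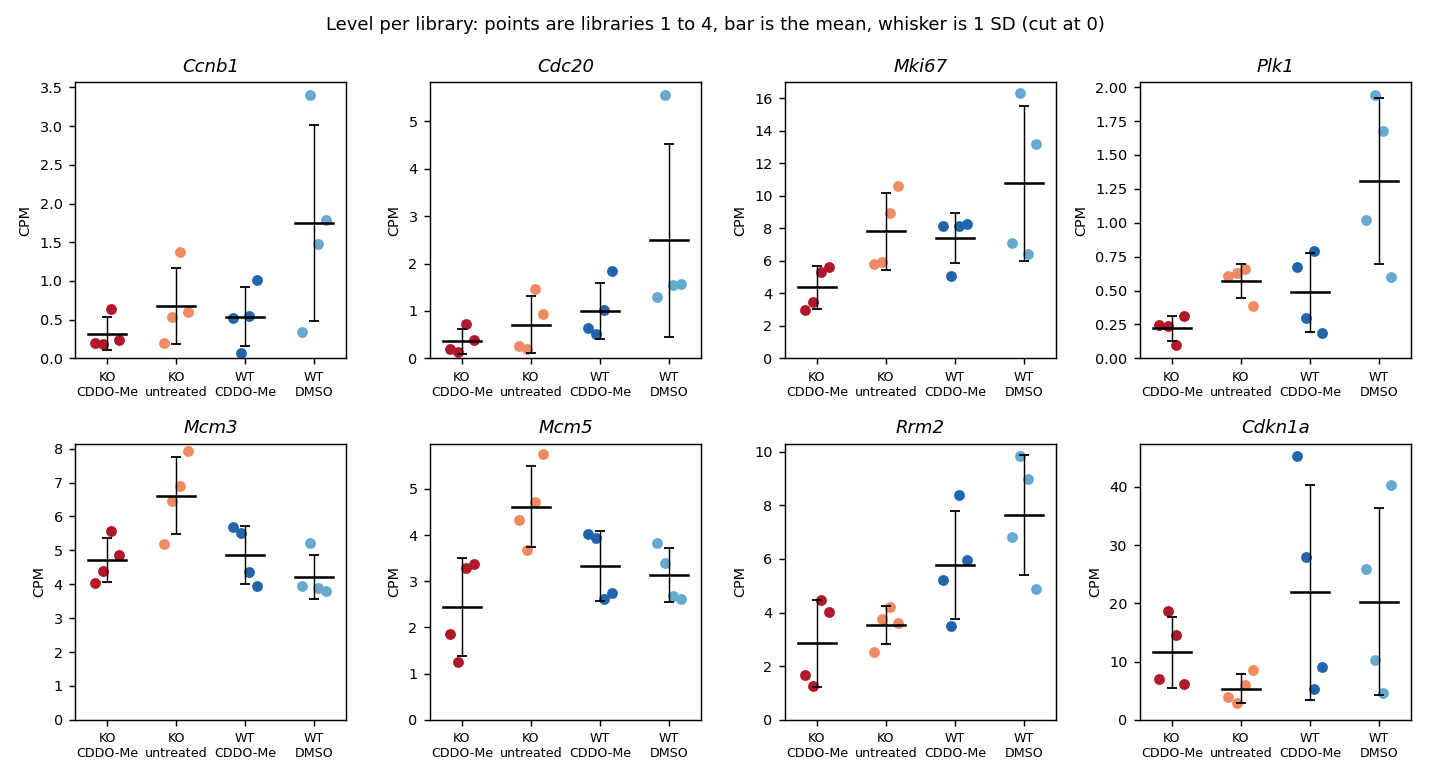
CPM of Ccnb1, Cdc20, Mki67, Plk1, Mcm3, Mcm5, Rrm2 and Cdkn1a in each library, by group, with points for the 4 libraries, a bar for the group mean and a whisker for 1 SD. WT DMSO 2 stands apart for Cdc20, at 5.55 CPM against 1.30 to 1.56 CPM in the remaining 3 of its group, and KO CDDO-Me libraries lie below KO untreated ones for Plk1 and Mcm5.

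Among the genes of DNA synthesis, Rrm2 was the one whose control groups did not overlap. As the only such member it made up 3.23% of the members, close to the 3.04% of all genes lower in every KO untreated library. It encodes the small subunit of ribonucleotide reductase, which is limiting for deoxynucleotide supply, and had 1.66, 1.25, 4.46 and 4.02 CPM in KO CDDO-Me, 2.54, 3.76, 4.2 and 3.62 CPM in KO untreated, 5.23, 3.498, 8.38 and 5.97 CPM in WT CDDO-Me and 6.82, 9.85, 8.97 and 4.87 CPM in WT DMSO. Every KO untreated library lay below every WT DMSO library, and under the drug KO CDDO-Me 1 and 2 were the lowest of all while KO CDDO-Me 3 and 4 exceeded WT CDDO-Me 2. KO untreated against WT DMSO had a log2 fold change of −1.10 ± 0.37 and an adjusted p = 0.166. KO CDDO-Me against WT CDDO-Me had a log2 fold change of −1.00 ± 0.38 and an adjusted p = 0.172. Without the 4 control libraries rich in intronic counts, the Rrm2 difference between the control groups was −0.84 (adjusted p = 0.463).

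Rrm1, the large subunit of the same enzyme, had 8.7 to 11.3 CPM in KO CDDO-Me, 6.96 to 13.3 CPM in KO untreated, 7.52 to 8.93 CPM in WT CDDO-Me and 7.49 to 9.3 CPM in WT DMSO, with log2 fold changes from 0.09 to 0.22. Its groups overlapped throughout. Pcna had 16.6 to 22.5 CPM in KO CDDO-Me, 10.7 to 22.5 CPM in KO untreated, 20.7 to 22.5 CPM in WT CDDO-Me and 11.7 to 21.2 CPM in WT DMSO and Tk1 had 14.3 to 18.96 CPM in KO CDDO-Me, 17.1 to 26.1 CPM in KO untreated, 12.5 to 18.1 CPM in WT CDDO-Me and 12.8 to 28.4 CPM in WT DMSO. Tyms, the gene of thymidylate synthase, had 6.72 to 8.77 CPM in KO CDDO-Me, 8.65 to 15.3 CPM in KO untreated, 8.54 to 10.5 CPM in WT CDDO-Me and 8.63 to 23.03 CPM in WT DMSO. Tyms and Tk1, which both supply thymidine nucleotides, had negative fold changes with the drug in both genotypes, Tyms −0.52 ± 0.26 in KO and −0.49 ± 0.26 in WT, and Tk1 −0.36 ± 0.21 in KO and −0.35 ± 0.21 in WT. None of these had unadjusted p under 0.05.

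The mitotic genes were on the low side in drug-treated livers of both genotypes. In KO CDDO-Me against KO untreated 12 of 13 had a negative log2 fold change, with a median of −0.84, and in WT CDDO-Me against WT DMSO 13 of 13 did, with a median of −0.83. KO CDDO-Me lay below WT CDDO-Me in 10 of 13, with a median of −0.63, and KO untreated below WT DMSO in 12 of 13, with a median of −0.63. Summed over the 13 genes, levels were 10.2 to 16.4 CPM in KO CDDO-Me and 18.1 to 27.6 CPM in KO untreated. These sums did not overlap. The sums of WT CDDO-Me were 11.8 to 23.6 CPM and those of WT DMSO 23.1 to 56.3 CPM. These met only at WT CDDO-Me 3 and WT DMSO 1. Mki67 and Top2a were the largest parts of the sum. They averaged 4.36 and 2.68 CPM of 13.3 CPM in KO CDDO-Me, and 7.81 and 4.605 CPM of 22.3 CPM in KO untreated. Gene by gene, only Plk1, Birc5 and Mki67 of these 13 separated the KO groups completely, as 4.5% of all genes did in this direction. The mean log2 deviation, which weighs the 13 genes alike, was −0.91 to −0.29 in KO CDDO-Me and −0.22 to 0.35 in KO untreated. The difference of drug responses had a median of −0.01, with 7 of 13 negative.

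Plk1, the kinase that drives entry into mitosis, had 0.243, 0.239, 0.0956 and 0.309 CPM in KO CDDO-Me, 0.6095, 0.627, 0.661 and 0.384 CPM in KO untreated, 0.676, 0.298, 0.7904 and 0.184 CPM in WT CDDO-Me and 1.02, 1.94, 1.67 and 0.597 CPM in WT DMSO. Every KO CDDO-Me library lay below every KO untreated library, and WT CDDO-Me reached into the WT DMSO range. The log2 fold change was −1.35 ± 0.50 (adjusted p = 0.251) with the drug in KO and −1.32 ± 0.47 (adjusted p = 0.218) in WT. KO CDDO-Me lay below WT CDDO-Me, at −1.21 ± 0.51 (adjusted p = 0.223), and KO untreated below WT DMSO, at −1.18 ± 0.46 (adjusted p = 0.235).

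Birc5, the gene of survivin, a subunit of the chromosomal passenger complex, had 0.283, 0.479, 0.382 and 0.481 CPM in KO CDDO-Me, 1.62, 1.11, 0.519 and 1.36 CPM in KO untreated, 0.60, 0.223, 1.26 and 0.459 CPM in WT CDDO-Me and 2.18, 2.01, 1.07 and 0.689 CPM in WT DMSO. The KO groups did not overlap, and in WT the drug-treated libraries spread from the lowest value of all to above 1 CPM. The log2 fold change was −1.50 ± 0.49 (adjusted p = 0.225) with the drug in KO and −1.21 ± 0.49 (adjusted p = 0.273) in WT. Aurkb, the kinase of the same complex, had 0.243, 0.144, 0.414 and 0.309 CPM in KO CDDO-Me, 0.305, 0.483, 0.614 and 0.895 CPM in KO untreated, 0.667, 0.223, 0.711 and 1.101 CPM in WT CDDO-Me and 0.682, 1.53, 0.602 and 0.781 CPM in WT DMSO. KO CDDO-Me libraries were at or under 0.414 CPM, and of the WT CDDO-Me libraries only WT CDDO-Me 2 lay in that range, a difference of −1.22 ± 0.49 (adjusted p = 0.205). Drug against control gave Aurkb −1.01 ± 0.49 (adjusted p = 0.322) in KO and −0.42 ± 0.47 in WT.

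Mki67, the gene of the proliferation antigen Ki-67, had 2.995, 3.49, 5.32 and 5.64 CPM in KO CDDO-Me, 5.79, 5.94, 8.92 and 10.6 CPM in KO untreated, 8.11, 5.06, 8.14 and 8.26 CPM in WT CDDO-Me and 7.09, 16.3, 6.42 and 13.2 CPM in WT DMSO. Every KO CDDO-Me library lay below every KO untreated library, by the narrowest of margins between KO CDDO-Me 4 and KO untreated 1. The log2 fold change was −0.84 ± 0.32 (adjusted p = 0.257) with the drug in KO and −0.76 ± 0.32 (adjusted p = 0.224) in KO CDDO-Me against WT CDDO-Me. In WT the drug gave −0.54 ± 0.31 (adjusted p = 0.402), with WT DMSO 2 and 4 high and the other WT libraries mixed.

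Top2a had 1.82, 1.77, 3.6 and 3.54 CPM in KO CDDO-Me, 3.301, 4.63, 4.86 and 5.62 CPM in KO untreated, 4.28, 2.605, 4.11 and 3.49 CPM in WT CDDO-Me and 4.502, 9.64, 4.08 and 5.97 CPM in WT DMSO. KO CDDO-Me 1 and 2 were the lowest libraries and WT DMSO 2 the highest, at more than any other library by over 3 CPM. The log2 fold change was −0.77 ± 0.31 (adjusted p = 0.271) with the drug in KO and −0.73 ± 0.31 (adjusted p = 0.292) in WT.

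Ccna2, the gene of cyclin A2, which acts in S phase and in G2, had 0.8499, 1.101, 1.27 and 1.27 CPM in KO CDDO-Me, 0.914, 1.06, 1.27 and 1.45 CPM in KO untreated, 0.971, 0.521, 1.11 and 1.19 CPM in WT CDDO-Me and 1.43, 3.75, 1.41 and 0.964 CPM in WT DMSO. Apart from WT DMSO 2 all libraries lay between 0.521 and 1.45 CPM. WT CDDO-Me against WT DMSO had a log2 fold change of −0.98 ± 0.39 and an adjusted p = 0.2696, and KO CDDO-Me against KO untreated had −0.06 ± 0.38.

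Ccnb1, the gene of cyclin B1, the partner of CDK1 at mitotic entry, had 0.202, 0.192, 0.637 and 0.241 CPM in KO CDDO-Me, 0.203, 0.531, 1.37 and 0.597 CPM in KO untreated, 0.524, 0.0744, 0.553 and 1.01 CPM in WT CDDO-Me and 0.341, 3.4, 1.47 and 1.79 CPM in WT DMSO. WT DMSO libraries were high except WT DMSO 1, and WT CDDO-Me 2 was the lowest library, with 1 count. WT CDDO-Me against WT DMSO had a log2 fold change of −1.72 ± 0.69 and an adjusted p = 0.272, and KO CDDO-Me against KO untreated had −1.04 ± 0.71.

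Foxm1, the gene of a transcription factor of the mitotic programme that liver regeneration needs, had 0.647, 0.239, 0.3504 and 0.5502 CPM in KO CDDO-Me, 0.965, 0.338, 0.755 and 0.852 CPM in KO untreated, 0.6095, 0.447, 0.7904 and 0.642 CPM in WT CDDO-Me and 1.23, 2.08, 0.736 and 0.872 CPM in WT DMSO. WT CDDO-Me and WT DMSO overlapped only at WT CDDO-Me 3 and WT DMSO 3. The drug gave a log2 fold change of −0.97 ± 0.42 and an adjusted p = 0.297 in WT and −0.69 ± 0.42 in KO.

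Cdc20 had 0.202, 0.144, 0.733 and 0.378 CPM in KO CDDO-Me, 0.254, 0.193, 1.46 and 0.938 CPM in KO untreated, 0.648, 0.521, 1.03 and 1.84 CPM in WT CDDO-Me and 1.296, 5.55, 1.54 and 1.56 CPM in WT DMSO. WT DMSO 2 stood far above all others, and KO untreated held a low pair, libraries 1 and 2, and a high pair, libraries 3 and 4. KO untreated against WT DMSO had a log2 fold change of −1.78 ± 0.66 and an adjusted p = 0.209, and KO CDDO-Me against WT CDDO-Me had −1.35 ± 0.71 (adjusted p = 0.355).

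The other 4 mitotic genes had no unadjusted p under 0.05. Ccnb2, the second B-type cyclin gene, had 0.733 to 1.48 CPM in KO CDDO-Me, 1.16 to 2.79 CPM in KO untreated, 0.372 to 1.66 CPM in WT CDDO-Me and 1.15 to 2.64 CPM in WT DMSO. Cdk1, the mitotic kinase, had 0.431 to 1.13 CPM in KO CDDO-Me, 1.06 to 2.22 CPM in KO untreated, 0.595 to 1.98 CPM in WT CDDO-Me and 1.02 to 4.09 CPM in WT DMSO, with −0.84 ± 0.46 for the drug in KO and −0.83 ± 0.46 in WT. Aurka, the centrosome kinase, had 0.722 to 1.402 CPM in KO CDDO-Me, 0.406 to 0.8495 CPM in KO untreated, 0.372 to 1.38 CPM in WT CDDO-Me and 0.321 to 2.91 CPM in WT DMSO. Aurka was the 1 mitotic gene with a positive log2 fold change for the drug in KO, 0.47 ± 0.55, against −0.61 ± 0.56 in WT. Bub1, a kinase of the spindle checkpoint, had 0.0688 to 0.478 CPM in KO CDDO-Me, 0.193 to 0.813 CPM in KO untreated, 0.158 to 0.734 CPM in WT CDDO-Me and 0.136 to 0.669 CPM in WT DMSO, and its log2 fold change for the drug was −1.30 ± 0.66 in KO and −0.24 ± 0.66 in WT.

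**Figure D4:**
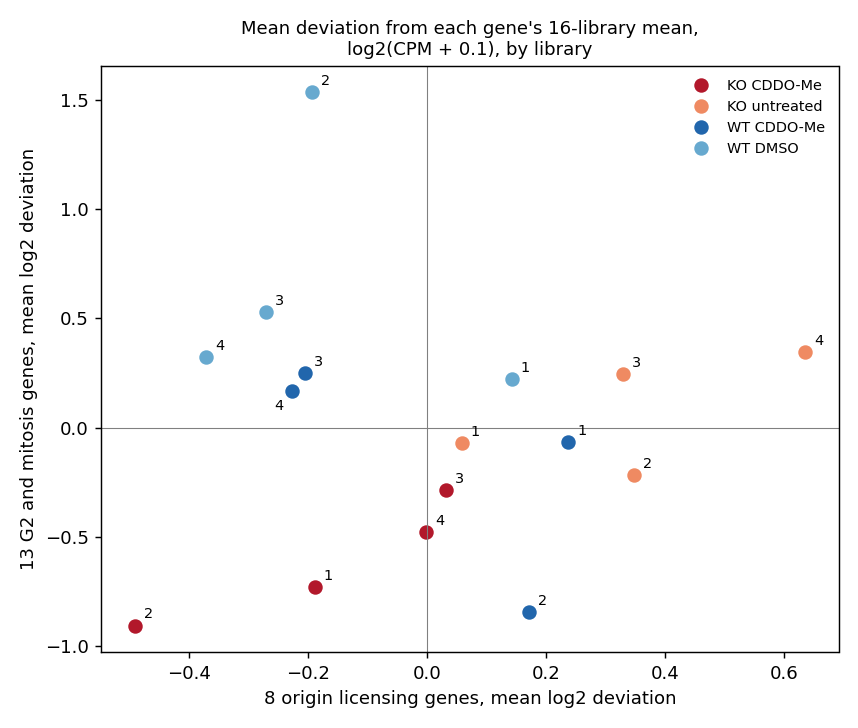
Mean log2 deviation of the 8 licensing genes (across) and of the 13 mitotic genes (up the page) from each gene's mean over the 16 libraries, on log2(CPM + 0.1), 1 point per library, coloured by group and numbered by replicate. On the mitotic axis KO CDDO-Me lies at −0.91 to −0.29, KO untreated at −0.22 to 0.35, WT CDDO-Me at −0.85 to 0.25 and WT DMSO at 0.22 to 1.54, where WT DMSO 2 stands alone at the top.

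Single WT libraries stood apart for the mitotic genes, WT DMSO 2 on the high side and WT CDDO-Me 2 on the low side. WT DMSO 2 was the highest of the 16 libraries for 12 of the 31 genes and for 10 of the 13 mitotic genes, where it was highest for 12.58% of all genes tested. Its summed mitotic level of 56.3 CPM stood beside 23.1 to 29.9 CPM in the remaining 3 of its group. Among 42 further mitotic genes that were not members it was highest for 27. Its summed licensing level of 35.04 CPM was inside the range of its group. WT CDDO-Me 2 had a summed mitotic level of 11.8 CPM, beside 20.2 to 23.6 CPM in the remaining 3 of its group, and was the lowest of the 16 libraries for 4 of the 13 mitotic genes.

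Without WT CDDO-Me 2 the mitotic median for the drug in WT was −0.61, with 13 of 13 negative, and for KO CDDO-Me against WT CDDO-Me it was −0.89, with 12 of 13 negative. Without WT DMSO 2 the mitotic median for the drug in WT was −0.42, with 12 of 13 negative, and for KO untreated against WT DMSO it was −0.19, with 10 of 13 negative. Plk1 was then at −1.07 (adjusted p = 0.506) for the drug in WT, Ccnb1 at −1.20 (adjusted p = 0.626), Birc5 at −1.03, Foxm1 at −0.60, Top2a at −0.42 and Ccna2 at −0.41. Between KO untreated and WT DMSO, Cdc20 was at −1.03 (adjusted p = 0.512) and Plk1 at −0.92 (adjusted p = 0.432). Without the 4 control libraries rich in intronic counts, WT DMSO 2 among them, the mitotic median for KO untreated against WT DMSO was −0.04, with 8 of 13 negative. The comparison within KO mice moved less, with a mitotic median from −0.95 to −0.65 over all removals of a single library.

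KO untreated 4 was the highest library for 6 members, 5 of them licensing genes, against 8.81% of all genes tested. KO CDDO-Me 2 was the lowest library for 7 members, 5 of them mitotic, against 3.38% of all genes.

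Genes of the same pathways that are not among the 31 had few calls, as did genes as a whole. The calls fell in KO CDDO-Me against WT CDDO-Me (3.3% of all genes called) and in KO untreated against WT DMSO (1.38%). Of 50 other mitotic genes 42 were tested and none was called, while 34 were negative for the drug in WT with a median of −0.74, and 33 in KO with a median of −0.47. The lowest p for the drug in WT was that of Cdca3, a gene of mitotic entry, at −1.06 ± 0.31 (adjusted p = 0.141). Of 38 other replication and nucleotide genes tested, 30 were positive in KO untreated against WT DMSO, with a median of 0.32, and none was called. The lowest p there went the other way, for Ung, a uracil-DNA glycosylase, at −1.06 ± 0.26 (adjusted p = 0.0522). Rfc5, a subunit of the clamp loader that works with PCNA, was the only gene of that list called in any comparison. It rose in KO CDDO-Me against WT CDDO-Me, at 0.93 ± 0.24 (adjusted p = 0.042), and lost the call without each of 7 single libraries, with adjusted p of 0.0552 to 0.135.

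Of 18 p53 target genes tested beside Cdkn1a, 2 were called in 1 comparison each. Gadd45a, a growth arrest and DNA damage gene, had 5.75, 6.84, 4.21 and 16.2 CPM in KO CDDO-Me, 1.62, 2.08, 2.17 and 1.53 CPM in KO untreated, 30.7, 18.3, 12.2 and 11.7 CPM in WT CDDO-Me and 12.6, 8.74, 2.88 and 29.5 CPM in WT DMSO. KO untreated libraries were all low, and WT DMSO 3 was the nearest of the WT DMSO libraries to them. Gadd45a fell in KO untreated against WT DMSO, at −2.87 ± 0.59 (adjusted p = 0.023), and lost the call without each single KO untreated library and without WT DMSO 4, with adjusted p of 0.0558 to 0.0751. Mdm2, the gene of the ubiquitin ligase of p53, fell in KO CDDO-Me against WT CDDO-Me, at −0.62 ± 0.15 (adjusted p = 0.0314). It lost the call without each of the 8 libraries in turn, with adjusted p of 0.0514 to 0.0980. Its mean was 29.7 ± 0.904 CPM in KO CDDO-Me and 45.8 ± 4.19 CPM in WT CDDO-Me (SD). The control groups had a like gap without a call, 28.9 ± 5.56 CPM in KO untreated and 44.8 ± 7.95 CPM in WT DMSO. Btg2, an antiproliferative p53 target, had the lowest p of the list for the drug in KO, at 1.78 ± 0.40 (adjusted p = 0.09602).

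Of 17 other G1 genes tested, E2f2, a second activating E2F gene, was called in 1 comparison. It rose in KO CDDO-Me against WT CDDO-Me, at 1.67 ± 0.39 (adjusted p = 0.0262). The call was lost without each of 5 single libraries, with adjusted p of 0.0596 to 0.0906. E2f2 averaged 2.66 ± 0.906 CPM in KO CDDO-Me and 0.8085 ± 0.255 CPM in WT CDDO-Me (SD). In the control groups it was also higher in KO, without a call, at 2.01 ± 0.855 CPM against 0.921 ± 0.342 CPM in WT DMSO. None of 13 quiescence genes and CDK inhibitors and none of 13 checkpoint kinases and DNA damage genes tested was called in any comparison.

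Liver holds other cell types that can divide, and the marker sums of some moved with the same groups. Kupffer cell and macrophage markers summed to 393.3 to 590.7 CPM in KO CDDO-Me, 273.9 to 501.0 CPM in KO untreated, 492.3 to 660.2 CPM in WT CDDO-Me and 232.2 to 298.7 CPM in WT DMSO. All 10 were positive for the drug in WT and 4 of them rose, Adgre1, Cd5l, Clec4f and Marco, while the mitotic members lay lower there. Markers of neutrophils and their precursors summed to 7.84 to 29.1 CPM in KO CDDO-Me and 0.762 to 1.92 CPM in KO untreated. The sums were 6.09 to 9.20 CPM in WT CDDO-Me and 1.804 to 31.9 CPM in WT DMSO. The 31.9 CPM was that of WT DMSO 4, with 1.804 to 3.41 CPM in the others of its group. Only 3 of these 10 markers were tested. Prtn3 rose with the drug in KO, while Ctsg and Camp were at 0 in all KO CDDO-Me libraries, Elane, Ctsg and Camp in all KO untreated libraries, and Ctsg, Ms4a3 and Camp in all WT CDDO-Me libraries. Erythroid markers summed to 523.6 to 1209 CPM in KO CDDO-Me, 246.0 to 762.8 CPM in KO untreated, 389.1 to 532.4 CPM in WT CDDO-Me and 301.0 to 654.7 CPM in WT DMSO, with none of 9 tested called. Stellate cell and fibroblast markers summed to 300.2 to 437.4 CPM in KO CDDO-Me, 297.2 to 758.6 CPM in KO untreated, 534.9 to 624.1 CPM in WT CDDO-Me and 282.7 to 450.7 CPM in WT DMSO. Marco and Ecm1, markers of Kupffer and stellate cells, fell past the threshold in KO CDDO-Me against WT CDDO-Me. There 6 of the 10 Kupffer cell and macrophage markers were negative and 4 positive (median −0.07). All 10 stellate cell and fibroblast markers were negative in that comparison (median −0.63). Adgre1 rose in KO untreated against WT DMSO. Marco was also called for the difference of responses, which was lower in KO. Their part in the levels of the 31 genes was not tested.

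B cell and plasma cell markers summed to 12.6 to 18.0 CPM in KO CDDO-Me, 9.91 to 15.5 CPM in KO untreated, 5.23 to 6.70 CPM in WT CDDO-Me and 5.22 to 9.51 CPM in WT DMSO. Ighm rose past the threshold in KO CDDO-Me against WT CDDO-Me. T and NK cell markers summed to 4.26 to 5.99 CPM in KO CDDO-Me and 4.34 to 6.10 CPM in KO untreated. In WT CDDO-Me they summed to 2.29 to 4.13 CPM and in WT DMSO to 2.93 to 4.72 CPM. Only 3 of these 10 markers were tested, and none was called in any comparison. Liver endothelial markers summed to 315.3 to 493.5 CPM in KO CDDO-Me, 421.5 to 514.3 CPM in KO untreated, 443.4 to 488.7 CPM in WT CDDO-Me and 288.5 to 444.5 CPM in WT DMSO. None was called, while 9 of 10 were positive for the drug in WT (median 0.48, 5 with unadjusted p under 0.05) and 9 of 10 were negative for it in KO (median −0.20). Cholangiocyte markers summed to 30.4 to 41.5 CPM in KO CDDO-Me and 16.7 to 41.5 CPM in KO untreated. In WT CDDO-Me they summed to 20.9 to 73.2 CPM and in WT DMSO to 11.1 to 94.6 CPM. None of the 5 tested was called. Among hepatocyte markers only Tat was called, which rose in KO CDDO-Me against WT CDDO-Me, where 5 of the 10 were positive and 5 negative. In WT DMSO 2, the library with the high mitotic levels, erythroid markers summed to 301.0 CPM. Its markers of neutrophils and their precursors summed to 1.804 CPM. Both were the lowest sums of its group. Its B cell and plasma cell markers at 9.51 CPM and its Kupffer cell markers at 298.7 CPM were the highest of its group. So were its T and NK cell markers at 4.72 CPM and its liver endothelial markers at 444.5 CPM. Its share of intronic and TEC counts was 0.880%.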

How the data were processed

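RNA was measured by ribosomal RNA-depleted RNA-seq in 16 livers, 4 groups of 4 animals. The authors deposited raw counts per gene, and FPKM values that equal count over gene length and library total (largest relative deviation 8.7e-07). Per the submitters' processing notes the build was GRCm38.p5 and the tools named were HTSeq (0.6.1p1), TopHat2 (2.1.0), DESeq2, cutadapt (1.2.1) and CASAVA (1.8.2), in no stated order. The annotation and strand setting of the counting were not given in the sources used here. Of 33730 IDs, 33629 matched GENCODE M21 and all 31 symbols were the same there. The deposited counts were fitted over all 16 libraries with edgeR 4.0.16 in R 4.3.3 (TMM scaling, filterByExpr, quasi-likelihood test, 12 residual degrees of freedom, no covariates). Adjusted p is Benjamini-Hochberg over 16206 genes, with a threshold of 0.05, and the standard error is the absolute log2 fold change over the square root of F. DESeq2 1.42.0, limma 3.58.1 on log2(FPKM + 0.1) and log2(FPKM + 1), voom, other filters and removals of libraries were the alternatives. Promoter windows came from RefSeq (GRCm38.p6). The total per library was 12002317 to 99284626 counts, and the p-values cover the spread between animals. All 31 genes are given; of the other lists, each called gene and at most the gene with the lowest p are named. The genes and lists were chosen with earlier results of these data known.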

Additional observations from a re-analysis of the deposited data

Results flagged for a closer look

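In 124 groups of 4 values (31 genes in 4 groups), 9 held a library far from the other 3 by Dixon's test, where chance gives about 1 in 20. In WT DMSO 2, Cdc20 was at 5.55 CPM (others 1.30 to 1.56 CPM) and Mcm3 was at 5.20 CPM (others 3.81 to 3.96 CPM). In WT DMSO 3, Ccne2 was at 1.27 CPM (others 0.614 to 0.643 CPM) and Rrm1 was at 9.30 CPM (others 7.49 to 7.57 CPM). In WT DMSO 1, Cdc6 was at 0.955 CPM, against 0.201 to 0.230 CPM in the others of its group. In KO CDDO-Me 2, Cdc6 was at 0.0957 CPM (others 0.344 to 0.445 CPM), and in KO CDDO-Me 3, Bub1 was at 0.478 CPM (others 0.0688 to 0.0957 CPM). Plk1 in KO untreated 4 was at 0.384 CPM, below 0.610 to 0.661 CPM in the others. Mki67 in WT CDDO-Me 2 was at 5.06 CPM, below 8.11 to 8.26 CPM in the others.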

How the results depend on the processing

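No member was called (0 of those tested) under DESeq2, limma on FPKM, other filters, DESeq2 size factors, fits to the compared groups only, or the removal of any single library (lowest and highest 0). Limma voom with quality weights called 4 members in KO CDDO-Me against KO untreated (Birc5, Cdc6, Mcm5 and Top2a; 12.9%, against 11.2% of all genes), 7 in WT CDDO-Me against WT DMSO (Birc5, Ccna2, Foxm1, Plk1, Tk1, Tyms and Pcna; 22.6%, against 31%) and 6 in KO CDDO-Me against WT CDDO-Me (Aurkb, Bub1, Cdt1, Mcm5, Mki67 and Rrm2; 19.4%, against 19.1%). With the intronic share as covariate 1 member, Mcm3, was called in KO untreated against WT DMSO (adjusted p = 0.0494; 3.23% of members, against 5.08% of all genes). The cause was not tested.

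Calls over all genes moved more. In KO CDDO-Me against KO untreated they were 21, but 292 with DESeq2, 86 with the intronic covariate, 55 on log2(FPKM + 0.1), 67 on log2(FPKM + 1), 51 with no filter, 4 without the 4 control libraries rich in intronic counts, 88 without WT CDDO-Me 1 and WT DMSO 4 together (the WT libraries low in ribosomal RNA), and 4 to 133 without single libraries. In WT CDDO-Me against WT DMSO they were 118, but 450 with DESeq2, 72 in a fit to these groups only, and 54 to 219 without single libraries. In KO CDDO-Me against WT CDDO-Me they were 534, but 1044 with DESeq2, 2168 with the intronic covariate, 970 and 959 on the FPKM scales, 2045 in a fit to these groups only, 1482 without the 4 libraries, and 265 to 820 without single libraries. In KO untreated against WT DMSO they were 223, but 607 with DESeq2, 20 in a fit to these groups only, 86 without the 4 libraries, and 104 to 271 without single libraries. For the difference of responses they were 21, but 173 with DESeq2, 201 with the intronic covariate, 54 and 57 on the FPKM scales, 161 with voom, 38 with no filter, 67 without the 4 libraries, and 18 to 48 without single libraries.

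On log2(FPKM + 0.1), which has no TMM scaling, the median of all genes moved to −0.22 for the drug in KO, −0.13 for the drug in WT, 0.11 in KO CDDO-Me against WT CDDO-Me and 0.17 in KO untreated against WT DMSO. Members with a positive sign then numbered 6, 8, 11 and 16 in these comparisons, against 8, 14, 10 and 13. Higher and lower calls over all genes were 29 and 26 for the drug in KO (17 and 4 in the count test), 643 and 327 in KO CDDO-Me against WT CDDO-Me (172 and 362), 145 and 89 in KO untreated against WT DMSO (66 and 157), and 6 and 48 for the difference of responses (0 and 21).

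With the replicate number as a block (replicate block), 0 members were called in each comparison, and over all genes 46 for the drug in KO, 226 in WT, 811 in KO CDDO-Me against WT CDDO-Me, 250 in KO untreated against WT DMSO and 42 for the difference of responses; Rfc5 had adjusted p = 0.0559. The correlations do not settle whether the numbers pair the animals. Of 24 same-number pairs 12 correlated over 0.1, with a range of −0.454 to 0.483. The same-number pairs of WT DMSO and KO untreated were at 0.371 to 0.483. Of 16 libraries 7 correlated best with their own number.

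The sign held under every alternative for 26 of the 31 genes for the drug in KO, 20 in WT, 26 in KO CDDO-Me against WT CDDO-Me, 18 in KO untreated against WT DMSO and 15 for the difference of responses, among them all with unadjusted p under 0.05. Under DESeq2, 8 members in each of the drug comparisons, 6 in KO CDDO-Me against WT CDDO-Me, 9 in KO untreated against WT DMSO and 4 for the difference had unadjusted p under 0.05. Between 26 and 31 members were tested, fewest under the stricter filter, and 14 members had under 10 counts in some library. Of 28 alternatives each, Gadd45a was called in 18, E2f2 in 22, Mdm2 in 17 and Rfc5 in 18.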
